A study of Glycine max with 36 samples.

Results

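Small RNA hits were examined on the soybean genes whose closest Arabidopsis protein is described as a cupin, an oleosin or a late embryogenesis abundant (LEA) protein, leaving out hydroxyproline-rich and lipid-transfer descriptions. Of 52872 genes, 85 cupin, 12 oleosin and 55 LEA genes met this rule. The 36 libraries came from a study of where small RNAs are made in soybean lines that differ in seed colour, and each deposited value counts the reads that matched a predicted transcript on its sense or its antisense strand. Plants were grown in a greenhouse, and seeds were staged by fresh weight and dissected by hand.

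The cultivar Williams (I locus genotype i-i R T, yellow seed coat with a black hilum) gave 16 of the libraries. They were 3 immature seed coats (seeds of 100 to 200 mg, 400 to 500 mg, and yellow seeds of 200 to 300 mg), 1 dry mature seed coat, 4 embryo parts, 7 seedling cotyledons at stages 1 to 7, and 1 leaf of a 10 day seedling. The embryo parts were an immature cotyledon without its axis (yellow seeds of 200 to 300 mg), a dry mature cotyledon, and 2 immature embryo axes (yellow seeds of 300 to 400 mg and of 200 to 300 mg). Stage 1 was an imbibed seed kept 48 hr underground and stage 7 a fully green cotyledon. The black-coated Williams 44 mutant (i R T) gave 1 seed coat library from seeds of 50 to 75 mg, and Clark 63 (i-i R T) and a Clark line with mi and G (i-i R t, defective seed coat) gave 1 each from seeds of 50 to 100 mg. Richland (I R t, yellow coat) and T157 (i R t, imperfect black coat) gave 3 seed coat libraries each from seeds of 5 to 6 mg and 1 each from seeds of 10 to 25 mg. The other 9 libraries were vegetative buds and shoot tips of Clark isolines that all carry i-i R T: standard, five-foliate (Lf1) and glabrous (P1). These were 3 buds from plants of 5 to 7 weeks, 2 tips from plants of 1 month and 4 tips of 1 cm from adult plants. The labels do not say that libraries of one group came from separate plants, so the p-values below measure only the spread between these libraries, and the 4 embryo parts and 7 stages, each treated as a group, differ in organ or age.

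Cupins share a barrel-shaped fold. In legume seeds the best known are the 11S and 7S globulins, the storage proteins that fill the maturing cotyledon and are broken down after germination, whereas other cupins are enzymes, pirins or sugar-binding proteins. Oleosins coat the oil bodies of seeds. LEA proteins accumulate late in seed development and in dry or cold-stressed tissue, and they help cells survive the loss of water. Small RNAs cut from double-stranded RNA can come from both strands, while breakdown pieces of a messenger RNA come from its sense strand. The deposited counts pool all read lengths, so these kinds of RNA cannot be told apart here, and a level below is a level of small RNA, not of messenger RNA or protein.

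Levels are given as CPM, hits per 1e6 hits on all genes of that library, both strands together unless said. Library size in units of 1e6 gene hits was 5.74 to 85.3 (median 24.6) except in seedling stage 2, where it was 0.965. A floor of 3 hits equals 0.0352 to 0.523 CPM in the other libraries and 3.11 CPM in stage 2. Stage 2 had no hit on any cupin or oleosin gene and 5 hits on 1 LEA gene, so results with the seedling group were also computed without it.

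The storage, oleosin and LEA genes were a small target of the sequenced small RNAs: together they took 0.0113% of all gene hits. Some 59 of 85 cupin genes (69.4%), 11 of 12 oleosin genes and 45 of 55 LEA genes (81.8%) had at least 1 hit, beside 83.5% of all genes. Averages of 1 CPM or more were reached by 12 cupin genes (14.1%), 11 of the 55 LEA genes and 0 oleosin genes, beside 22.2% of all genes. Summed over genes, 61.1% of 56735 cupin hits, 87.5% of 1308 oleosin hits and 63.2% of 48764 LEA hits were sense, beside 31.8% over all genes, where 3 genes hold 31.6% of the level. Gene by gene, among those with at least 50 hits, the median sense share was 39.7% for cupins, 96.3% for LEA genes and 60.3% for all genes, so for cupins the typical gene lay below the background and the sum above it. The 3 most abundant members carried 47.2% of the cupin level and 43.6% of the LEA level, so each class total follows few genes.

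**Figure D1:**
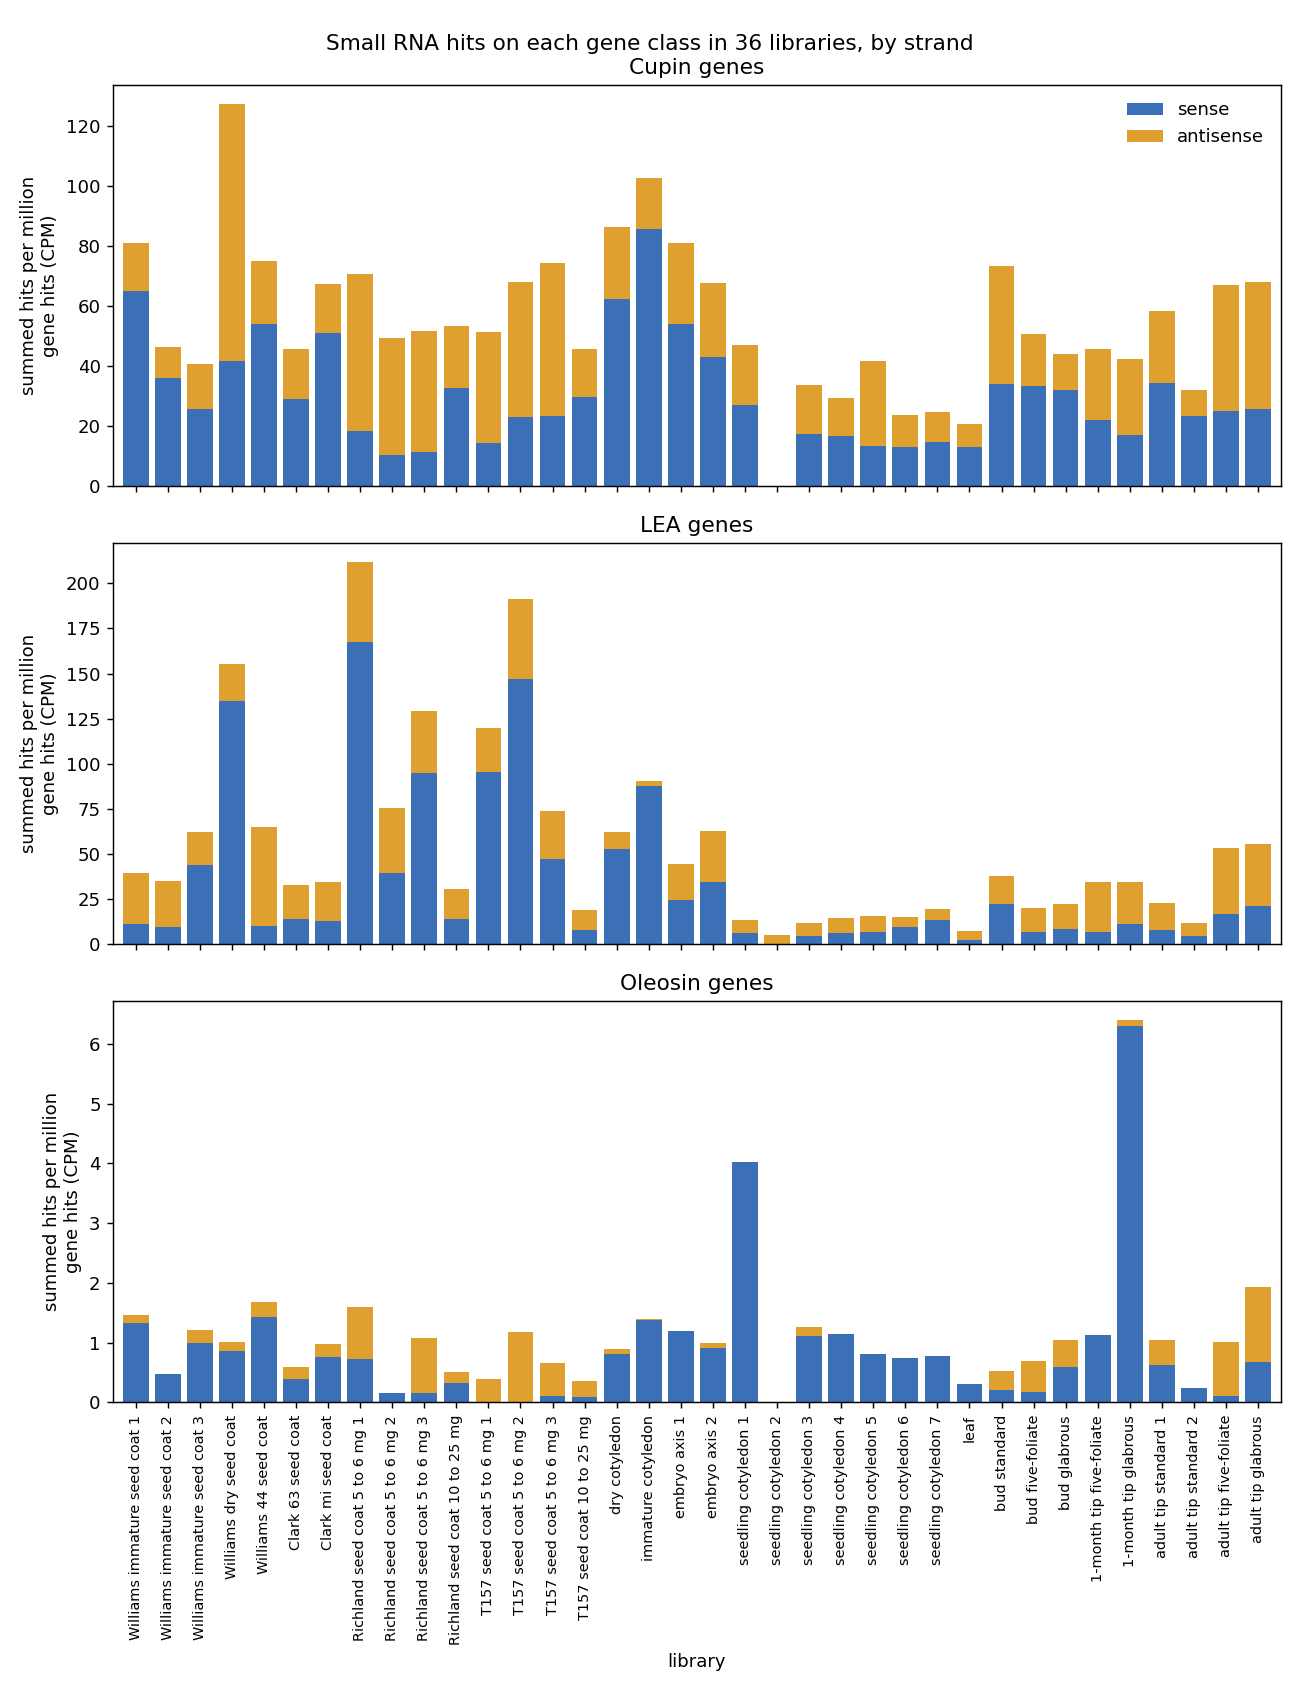
Summed CPM (linear axis from 0) on the 85 cupin, 12 oleosin and 55 LEA genes in each of the 36 libraries, with sense hits in blue and antisense hits in orange stacked on top. The highest cupin bar is the dry seed coat at 127.1 CPM, and the highest LEA bars are a Richland coat of 5 to 6 mg at 211.7 CPM, a T157 coat of the same weight at 191.1 and the dry seed coat at 155.3.

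The highest summed cupin levels in CPM were those of the dry seed coat and the immature cotyledon. The level was 102.6 CPM in the immature cotyledon, 86.1 in the dry cotyledon, lower in the first axis and 67.5 in the second, a mean of 84.3 ± 14.5 (SD, n = 4). The 3 Williams immature coats had 80.8, 46.3 and 40.7 CPM, and the single dry coat had 127.1. Seedling cotyledons other than stage 2 had 23.6 to 47.1 CPM (median 31.6, n = 6), below every embryo part, and the leaf had 20.8. Buds and shoot tips lay between, from 31.9 to 73.1 CPM (median 50.7, n = 9), and overlapped the embryo parts at their upper end. The 6 youngest coats, of Richland and T157 seeds of 5 to 6 mg, had 49.3 to 74.3 CPM (median 59.6), also overlapping the embryo parts. Both overlaps rest on cupins whose counts nearly equal those of genes outside the 3 classes: without them, a choice made after seeing the data, buds and tips had 25.6 to 37.1 CPM, the youngest coats 20.1 to 30.6 and embryo parts 47.4 to 91.5. In such bulk samples, fewer cells of a type and less RNA per cell cannot be told apart.

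The LEA level split the libraries differently. It was 90.4 CPM in the immature cotyledon, 62.4 in the dry cotyledon, and 44.3 and 62.7 in the axes. It reached 155.3 CPM in the dry seed coat, above the 3 Williams immature coats at 39.2, 34.9 and 62.0. Seedling cotyledons with stage 2 left out had 11.5 to 19.5 CPM (median 14.8, n = 6), none as high as any embryo part or Williams coat. Buds and shoot tips had 11.7 to 55.5 CPM (median 34.3, n = 9), overlapping seedlings, embryo parts and Williams coats, and the leaf had 7.45. The 6 youngest coats, of Richland and T157, had 73.8 to 211.7 CPM (median 124.7). That height came from 1 gene pair described below: their mean was 133.5 ± 57.6 CPM with it and 43.7 ± 10.97 CPM without it (n = 6).

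Oleosin hits were sparse in every library. Embryo parts had 1.12 ± 0.22 CPM (n = 4) and Williams immature coats 1.04 ± 0.52 (n = 3). The 2 highest libraries were the glabrous tip at 1 month with 6.40 CPM and seedling stage 1 with 4.02, and all others had at most 1.93.

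Among the cupins, 4 genes have the Arabidopsis cruciferin CRU1 (also CRA1), a 12S globulin, as closest protein. Their hits were 93.5% sense. Their summed level was 52.5 CPM in the immature cotyledon, 21.8 in the dry cotyledon, 12.6 and 11.3 in the axes, and 18.5 in stage 1 seedling cotyledons, which is higher than in either axis. The other seedling stages apart from stage 2 had 5.28 to 11.7 CPM, the Williams immature coats 15.5, 12.8 and 7.88, buds and shoot tips 2.97 to 13.6 (median 5.47, n = 9), and the leaf 2.23.

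The CRU1 homologs did not share one pattern. Glyma.19G164900 had 13.5 CPM in the immature cotyledon, 5.16 in the dry cotyledon, and 0.701 and 0.421 in the axes, against 0.0673 to 1.12 (median 0.373) in the 6 deeper seedling libraries. Glyma.03G163533 followed the same course, with 11.3, 4.50, 0.701 and 0.436 CPM, and all hits of both genes were sense. Glyma.03G163467 had 15.8, 6.01, 1.57 and 1.70 CPM. In these 3 genes both cotyledon libraries stood above every seedling library, while the axes lay inside the seedling range, except the second axis for Glyma.03G163467, whose highest seedling value was 1.62 CPM. Glyma.10G037100, the most abundant of the 4, was spread evenly instead: 12.0, 6.18, 9.61 and 8.78 CPM in the embryo parts and 3.66 to 14.4 (median 7.80) in the 6 deeper seedling libraries, with its highest value in stage 1.

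The 9 homologs of PAP85, an Arabidopsis vicilin-like protein, had 89.6% sense hits. Glyma.02G145700 led them, with 21.2 and 14.2 CPM in the axes, 10.6 in the dry cotyledon and 2.12 in the immature cotyledon, so the order of organs was the reverse of that of those 3 CRU1 homologs. Its values in Williams immature coats were 24.7, 7.78 and 1.51 CPM, and the 6 deeper seedling libraries had 0.538 to 1.85 (median 1.01). Its hits, compared library by library and summed, were within 5% of those of 8 genes of other families, so which gene the reads came from is uncertain. Glyma.20G148300 and Glyma.20G148400 had identical counts in every library, so both had 4.62 CPM in the immature cotyledon, 3.93 in the dry cotyledon, and 2.24 and 1.62 in the axes, all above the seedling range of 0 to 1.43. Glyma.10G246300 had one high seedling library, stage 5 with 16.1 CPM, of which 86 hits were sense and 311 antisense, against 4.43 CPM in the immature cotyledon, where 270 of 271 hits were sense.

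Summed over genes, the other 72 cupins had 33.5% sense hits, and 47.0% without Glyma.13G153154, beside 31.8% for all genes. Gene by gene they lay further to the antisense side. Among those with at least 50 hits, the median sense share was 14.1% for pirin-domain cupins and 11.4% for the rest. Over all genes with as many hits it was 60.3%. The most abundant member of all per kilobase of transcript among cupins was Glyma.13G153154 (13.1 CPM per kb), and 0.785% of its 8665 hits were sense. It had 16.0 to 36.7 CPM (median 23.5) in the 6 coats of 5 to 6 mg, above the 1.71 to 2.98 of the Williams immature coats, and 2.10 to 33.8 (median 13.7) in buds and tips. Its counts were within 5% of those of 3 genes that are no cupins, of which 2 are described as sodium/calcium exchangers. Glyma.11G153587, whose Arabidopsis counterpart is vicilin-like, had 79.5 CPM in the dry seed coat (801 sense and 2411 antisense hits), which is 57.1% of its summed level over the 36 libraries. It had 5.32, 5.37 and 9.05 CPM in the Williams immature coats and at most 8.35 elsewhere. Glyma.03G069100, a pirin-domain cupin, was highest in vegetative buds: 23.3, 25.4 and 24.2 CPM in the 3 buds, 11.3 to 17.4 in the 4 adult tips, but 4.07 and 1.04 in the tips at 1 month and 0.325 to 1.37 in the 6 deeper seedling libraries. The seed coats of 10 to 25 mg were also high, with 21.5 CPM in Richland and 18.5 in T157.

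**Figure D2:**
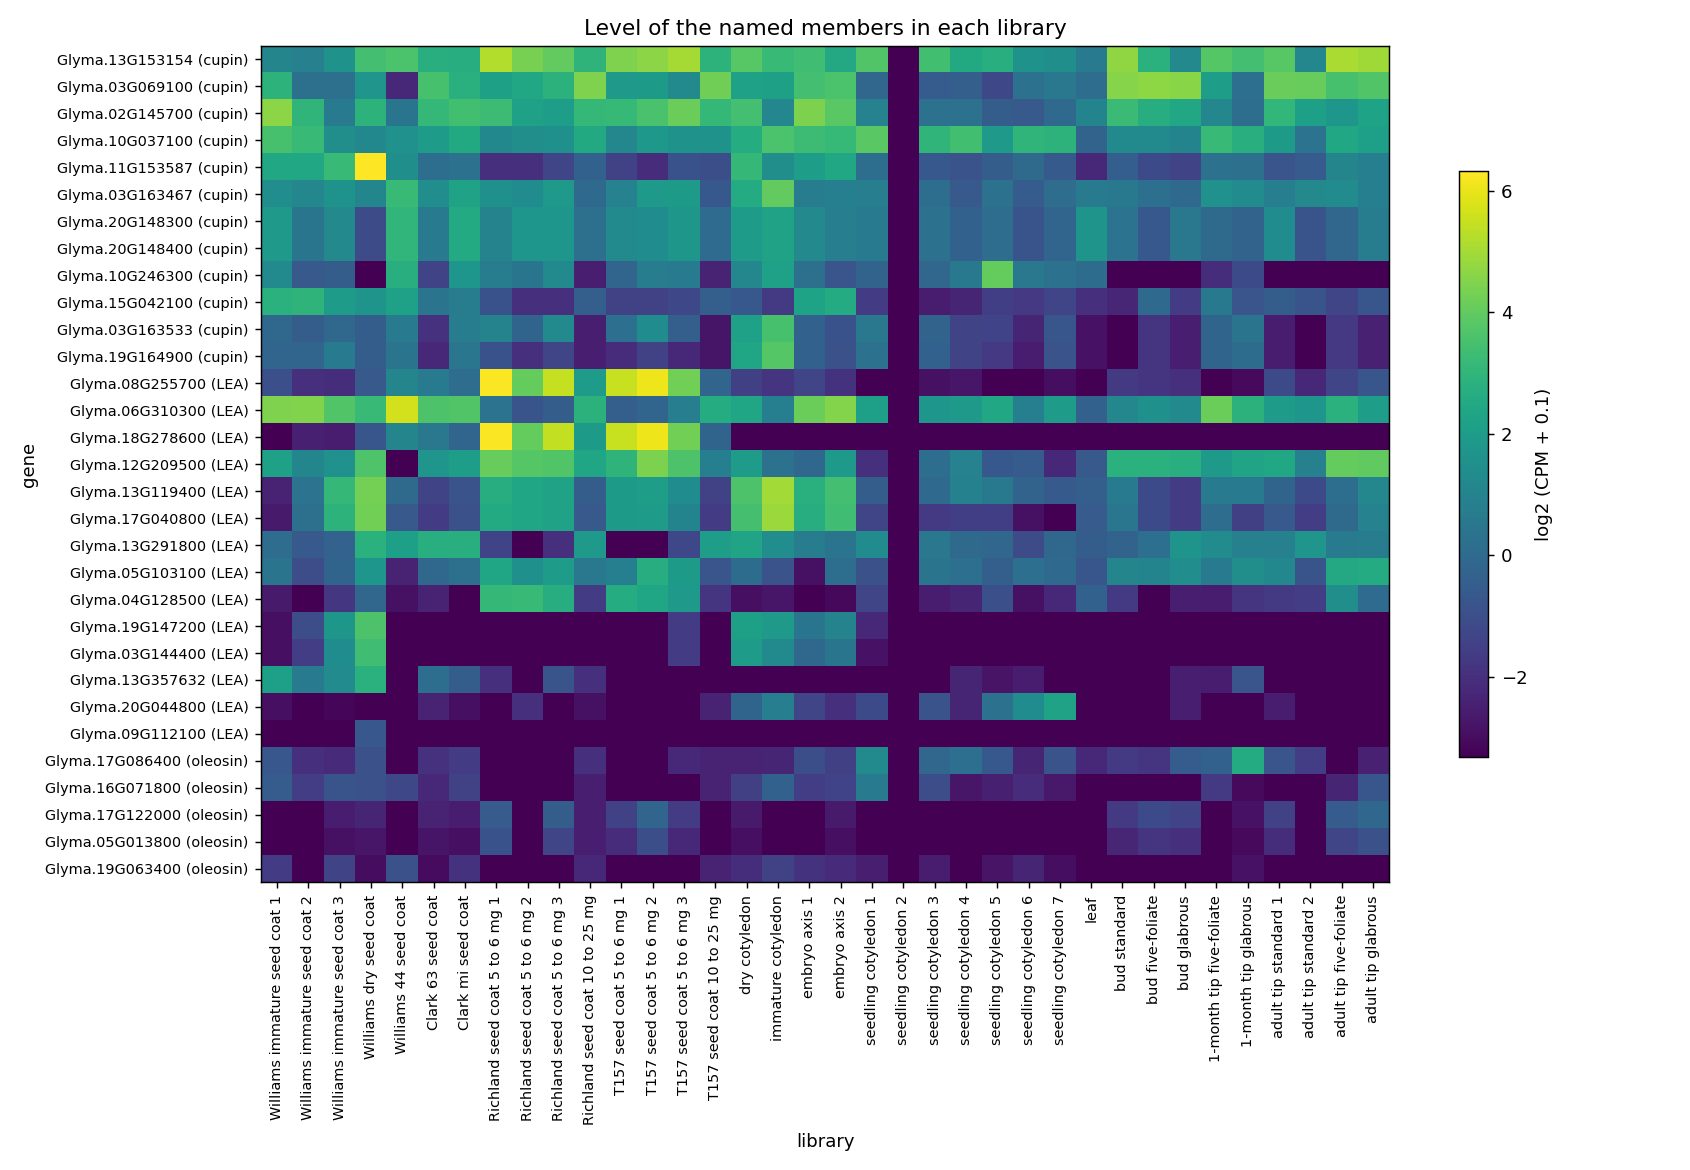
Level of the most abundant and most changed members in each of the 36 libraries, as log2 of CPM plus 0.1, with genes in rows and libraries in columns. The pair Glyma.08G255700 and Glyma.18G278600 is bright in the 6 coats of 5 to 6 mg (16.5 to 77.4 CPM), and the LEA4-5 homologs Glyma.03G144400 and Glyma.19G147200 are bright in the dry seed coat (10.1 and 12.1 CPM) and dark in buds, shoot tips and leaf.

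Late-maturation libraries led one set of LEA genes. For 3 genes the closest protein is LEA4-5, a hydrophilic LEA protein of Arabidopsis, and all of their 2578 hits were sense. Glyma.19G147200 had 12.1 CPM in the dry seed coat, 4.40 in the dry cotyledon, 3.55 in the immature cotyledon, and 1.23 and 1.89 in the axes. In the Williams immature coats it had 0.0317, 0.389 and 3.32 CPM, highest in the yellow seeds. Glyma.03G144400 ran in parallel, with 10.1, 3.76, 2.32, 0.867 and 1.23 CPM in the same order. The third, Glyma.09G112100, had 21 hits, all in the dry seed coat. The 3 genes had no hit in the leaf, the buds or the shoot tips, and summed over all 3 only 10 of the 36 libraries had any.

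Of the 37 LEA genes with at least 50 hits, 13 had their highest CPM in the dry seed coat, as did 4 of 35 such cupins (35.1% and 11.4%), beside 18.8% of the 34673 genes with as many hits. The most confined to it was Glyma.03G189200, with 5.20 CPM there and 85.6% of its summed CPM over the 36 libraries. Among the others, Glyma.13G363300 (7.20 CPM there), Glyma.05G112000 (8.29) and Glyma.17G155000 (5.22) had 72.3%, 69.5% and 69.6% in that single library. Glyma.13G119400 and Glyma.17G040800, homologs of one Arabidopsis LEA-domain gene, had 19.6 and 19.2 CPM in the dry seed coat but peaked in the immature cotyledon with 31.3 and 28.8 CPM. In the dry cotyledon they had 12.3 and 11.1 CPM and in the axes 6.84 and 10.6, and 6.27 and 10.1. Part of the reads of these paralogs is shared, since 78.7% and 77.7% of their hits are marked unique and their antisense counts are nearly equal.

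Another set peaked in the youngest seed coats. Glyma.08G255700 had 77.4, 16.5 and 43.8 CPM in the 3 Richland coats of 5 to 6 mg and 45.5, 67.9 and 19.0 in the 3 T157 coats. Its paralog Glyma.18G278600 had nearly the same hits, 532 against 534 in the first Richland library and 514 against 517 in the second T157 library, so the reads cannot be assigned to one of them although all are marked unique. The pair took 43.8% to 75.8% of all LEA hits in these 6 libraries. At 10 to 25 mg Glyma.08G255700 had 3.85 CPM in Richland and 0.795 in T157, and no other library exceeded 1.99. Sense hits were 98.5% of its total.

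Antisense LEA members behaved in yet other ways. Glyma.06G310300, a group 1 LEA gene with 2.35% sense hits, had 50.4 CPM in the Williams 44 coat, 21.6 and 22.4 in the first 2 Williams immature coats, less in the third, and 17.7 and 22.8 in the axes, but 0.462 to 1.63 (median 0.722) in the 6 coats of 5 to 6 mg. Glyma.04G128500, of the same description and with no sense hit, was the opposite: 3.47 to 8.93 CPM (median 6.23) in the coats of 5 to 6 mg and at most 2.62 in any other library. Glyma.12G209500 (6.89% sense) had 7.61 to 21.2 CPM (median 13.3) in the coats of 5 to 6 mg, 12.4 in the dry coat, 16.2 and 15.4 in the adult five-foliate and glabrous tips, and no hit in the Williams 44 coat. Only 23.7% of its hits are marked unique.

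The most abundant oleosin gene was Glyma.17G086400, with 6.07 CPM in the glabrous tip at 1 month (314 hits), 2.28 in seedling stage 1 and 0 to 1.04 elsewhere, all hits sense. Glyma.16G071800 had 1.47 CPM in stage 1 and 0.703 in the immature cotyledon, with 0 to 0.602 in the rest. Glyma.20G196600, a homolog of OLE1, the main seed oleosin of Arabidopsis, had 81 hits in all, its top value being 0.269 CPM in stage 6. Glyma.10G193900, also a homolog of OLE1, had 2 hits, both antisense. Glyma.17G122000 and Glyma.05G013800 had 0 and 5.13% sense hits, and the counts of Glyma.17G122000 were within 5% of those of 28 genes that are not members.

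The strand of the hits differed between genes. In the test of sense against antisense hits within each library (edgeR quasi-likelihood, all 36 libraries, Benjamini-Hochberg adjusted p under 0.05), 29 cupin, 3 oleosin and 36 LEA genes had enough hits to be tested. Of these, 12, 2 and 22 had more sense hits and 11, 1 and 8 had more antisense hits, so 56 of 68 were called, beside 83.1% of all 30774 tested genes (44.4% sense and 38.7% antisense). Among the most sense-biased were Glyma.02G145700 (log2 ratio of sense to antisense 8.62 ± 0.52 SE, edgeR adjusted p = 3.9e-18) and Glyma.13G291800, an LEA-domain gene (6.69 ± 0.51, edgeR adjusted p = 1.4e-14). Among the most antisense-biased were Glyma.13G153154 (-7.74 ± 0.48, edgeR adjusted p = 1.1e-17) and Glyma.06G310300 (-7.80 ± 0.57, edgeR adjusted p = 1.4e-15).

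Hits on several storage protein genes were on the other strand in the youngest seed coats. Hits on the CRU1 homologs were 27.9% to 52.0% sense in the 6 Richland and T157 coats of 5 to 6 mg, against 93.4% to 99.8% in the 4 embryo parts and 91.7% to 97.6% in the 3 Williams immature coats. In the single Richland and T157 libraries at 10 to 25 mg the share was 82.4% and 84.1%. For Glyma.03G163467 there were 21 sense and 112 antisense hits in the 6 youngest coats and 1478 and 28 in the embryo parts. For Glyma.20G148300 6.50% of hits were sense in the youngest coats and 99.9% in the embryo parts, and for Glyma.10G246300 4.55% and 99.8%. Glyma.02G145700 did not switch, with 436 sense and 2 antisense hits in the youngest coats, nor did Glyma.03G163533 and Glyma.19G164900, whose hits were all sense. Over all genes the sense share of these 6 libraries was 34.2% to 42.1%, inside the range of 23.9% to 42.6% of all libraries other than stage 2. These coats differ from the Williams coats in age, cultivar, I locus genotype and depth at once, which cannot be told apart, and the switch was not tested.

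**Figure D3:**
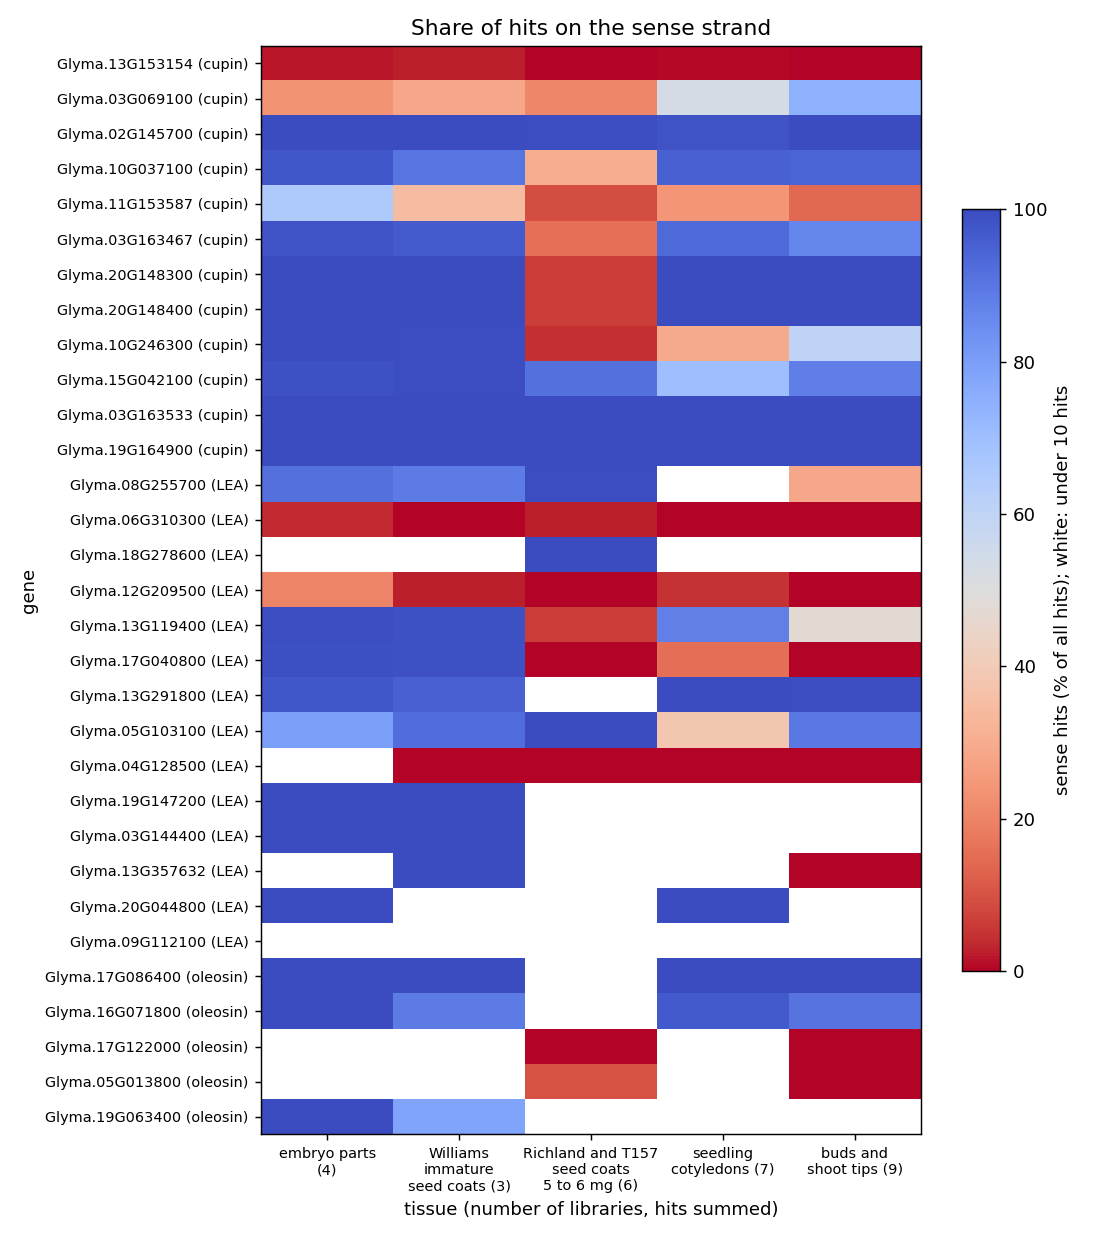
Share of hits on the sense strand (percent, colour) for named members in 5 tissue sets, hits summed over the libraries of each set, with sets of under 10 hits in white. Glyma.17G040800 goes from 99.2% in embryo parts to 0% in the coats of 5 to 6 mg and in buds and tips, while Glyma.13G153154 is near 0% throughout and Glyma.02G145700 near 100%.

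The LEA paralogs Glyma.17G040800 and Glyma.13G119400 showed a like change. Their antisense counts are nearly equal (411 and 406 hits in all), so they are not separate cases. Hits on Glyma.17G040800 were 99.2% sense in embryo parts (3301 of 3329) and 98.5% in Williams immature coats, but all 178 hits in the coats of 5 to 6 mg and all 85 in buds and shoot tips were antisense. Glyma.13G119400 had 99.2%, 98.6%, 6.38% and 47.5% sense hits in the same sets. Glyma.13G237700, another LEA gene, had 90.7% sense hits in embryo parts and 3.39% and 5.88% in the last 2 sets. For Glyma.03G069100 the shares ran the other way, 23.5% sense in embryo parts and 74.4% in buds and tips.

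The first comparison set the 4 embryo parts against the 7 seedling cotyledons, that is, seed organs against cotyledons after germination. With edgeR, 20 cupin, 1 oleosin and 16 LEA genes passed the low-count filter. Of the cupins 9 rose and 2 fell, the oleosin fell, and of the LEA genes 7 rose and 4 fell, so 23 of 37 tested members were called, beside 44.3% of the 15733 genes tested (24.1% higher and 20.3% lower). The pair Glyma.20G148300 and Glyma.20G148400 counts as 2 cupins here and below. With identical counts merged, 15 members rose and 7 fell of 36, beside 23.9% and 19.9% of 15192 genes. Without stage 2 the counts were the same, beside 52.1% of 15736 genes. DESeq2 called 39 of the 74 members to which it gave an adjusted p, beside 38.6% of 30760 genes. Members that passed the filter only through a high level in the embryo parts, or only through the seedlings, had to differ. These counts also say nothing of the 65 cupins, 11 oleosins and 39 LEA genes below it. The median log2 fold change was 1.36 over the tested cupins and 1.04 over the tested LEA genes, and 0.23 over all tested genes. With the library reads as library size the median of all genes was 1.89, and 30 of 44 tested members rose and 1 fell, beside 46.4% and 5.84% of all genes.

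Among the cupins called, Glyma.02G145700 was at 12.0 ± 7.94 CPM in embryo parts (n = 4) and 0.879 ± 0.583 in seedlings (n = 7), with no overlap (log2 fold change 2.78 ± 0.55 SE, edgeR adjusted p = 0.00039). That value may belong to other genes, as given above. The CRU1 homologs Glyma.19G164900 (3.23 ± 0.85, edgeR adjusted p = 0.0039), Glyma.03G163533 (2.79 ± 0.81, edgeR adjusted p = 0.0079) and Glyma.03G163467 (2.48 ± 0.68, edgeR adjusted p = 0.0054) rose too. Those 3 calls rest on the immature cotyledon: without it the values were 1.46, 1.10 and 0.90 with edgeR adjusted p of 0.12, 0.23 and 0.23, and with the axes as the only embryo parts the sign turned (-0.82, -0.99 and -0.31). Glyma.11G153587 (log2 fold change 2.24 ± 0.50), Glyma.03G069100 (2.52 ± 0.53) and Glyma.13G123500 (2.82 ± 0.61), whose Arabidopsis counterpart is a 12S globulin, also rose, with no overlap between groups, although without the immature cotyledon the value of Glyma.13G123500 was 1.80. Glyma.20G148300 and its equal Glyma.20G148400 were called (1.36 ± 0.54, edgeR adjusted p = 0.044), but not without any 1 of the 4 embryo parts or of seedling stages 3 to 7 (edgeR adjusted p 0.054 to 0.32). The vicilin-like Glyma.11G065800 (0.337 ± 0.215 against 1.53 ± 0.698 CPM, log2 fold change -2.73 ± 0.65) and Glyma.01G177000 (-2.34 ± 0.66) fell, by more without the immature cotyledon (-3.72 and -3.17). Glyma.11G065800 passed the low-count filter only through the seedlings, so its difference was built in.

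The largest single fold changes were those of LEA genes. Those with few or no seedling hits passed the low-count filter only through the embryo parts, so a difference was built in. Glyma.17G040800 was at 28.8 CPM in the immature cotyledon, 11.1 in the dry cotyledon and 6.27 and 10.1 in the axes, and at 0 to 0.309 (median 0.210) in seedlings (log2 fold change 6.05 ± 0.80, edgeR adjusted p = 1.3e-05). Glyma.13G119400 rose by 3.64 ± 0.65 on the log2 scale (edgeR adjusted p = 0.00015). Without the immature cotyledon these values were 4.87 and 2.43. Glyma.16G031300, a homolog of LEA14, had 154, 225, 19 and 89 hits in the dry cotyledon, the immature cotyledon and the axes and none in any seedling library, at least 122-fold higher against a floor of 3 hits over the group. Glyma.19G147200 had 660 hits against 3, a ratio of 165 in CPM (95% counting interval 56.1 to 801), and Glyma.03G144400 489 against 1, a ratio of 366 (65.4 to 14496). Stage 1 held those seedling hits, and without it Glyma.03G144400 was at least 103-fold higher against the floor. Glyma.06G283900 and Glyma.13G237700 rose as well, by 5.72 ± 1.04 and 3.63 ± 0.73, or by 3.81 and 3.02 without the immature cotyledon. Stage 5 held all 5 seedling hits of Glyma.06G283900, which without that stage was at least 107-fold higher. The 4 that fell were 3 genes whose protein holds a root cap domain, Glyma.11G147700, Glyma.11G147600 and Glyma.12G068800 (-4.54, -3.58 and -2.95), and Glyma.10G130600, a homolog of UNE15 (-3.63). Glyma.10G130600 passed the filter only through the seedlings, so its fall was built in. Glyma.11G147600 and Glyma.11G147700 have equal sense counts in nearly all libraries.

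**Figure D4:**
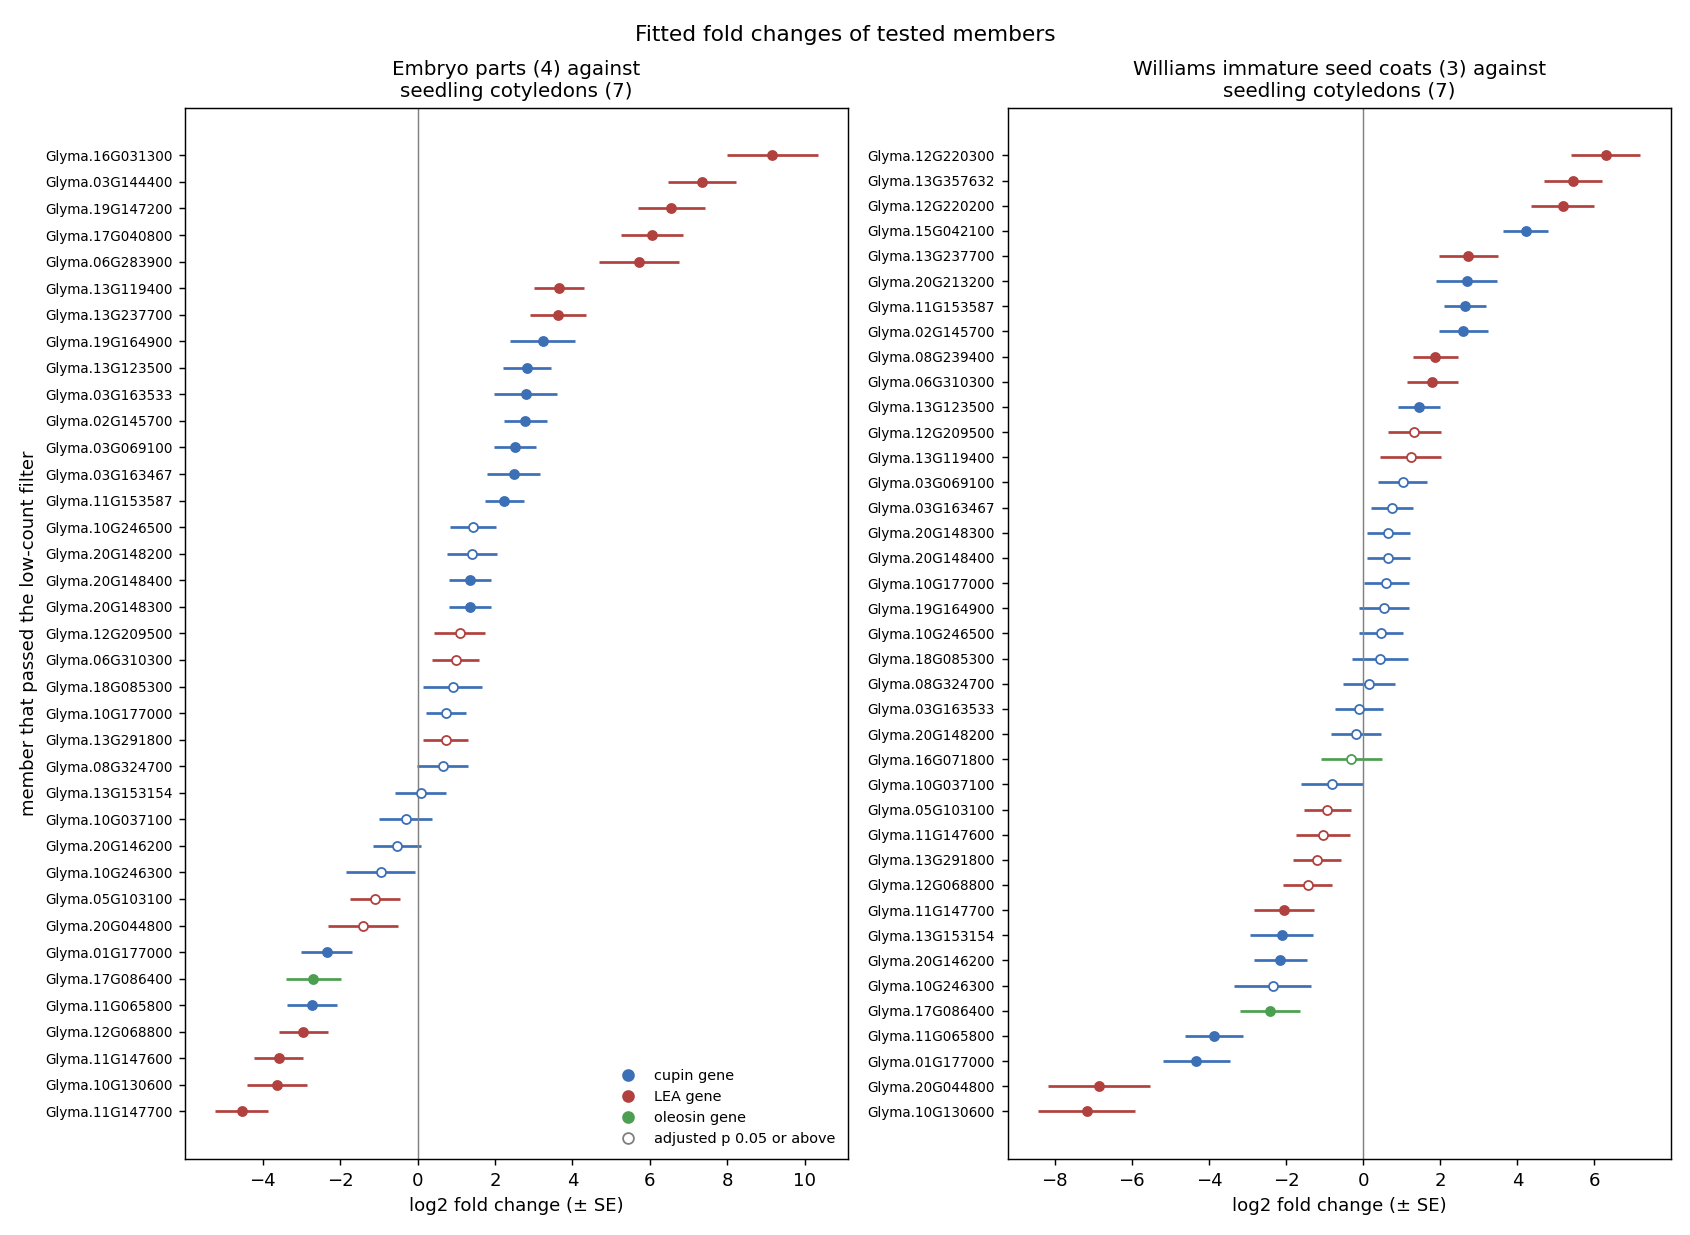
Fitted log2 fold change with its SE (horizontal axis) for each member that passed the low-count filter, embryo parts against seedling cotyledons and Williams immature seed coats against seedling cotyledons, with filled points for an edgeR adjusted p under 0.05. Cupin and LEA genes lie on both sides of 0, for example at -4.54 for Glyma.11G147700 and 6.05 for Glyma.17G040800 in the first comparison, and the oleosin Glyma.17G086400 lies below 0 in both.

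The oleosin Glyma.17G086400 fell, from 0.743 ± 0.769 CPM in seedlings to 0.212 ± 0.146 in embryo parts (log2 fold change -2.69 ± 0.71, edgeR adjusted p = 0.0040). It could not have passed the low-count filter through the embryo parts, so a difference was built in. Its seedling value was 2.28 CPM in stage 1 and at most 1.04 in the other stages. It was not called with library reads as library size (-0.99), the scaling that moves the median of all genes from 0.23 to 1.89.

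The strands were also tested apart. With sense hits alone 7 of 15 cupins rose and none fell, and 10 of 17 LEA genes rose and 4 fell, beside 47.9% of 9665 genes called (25.6% higher and 22.3% lower). Glyma.05G112000, Glyma.13G363300 and Glyma.17G155000 were among the LEA genes that rose. They passed the low-count filter only through the embryo parts, so their rise was built in. Glyma.05G112000 and Glyma.17G155000 had the same value in this fit (6.97 ± 1.11 each), so they are not separate cases. With antisense hits alone 2 of 11 cupins rose and 5 fell, and 0 of 4 LEA genes rose and 2 fell, beside 44.6% of 7841 genes (23.2% higher and 21.4% lower). Whether a gene's strands differed in their change was not tested. The cupins whose antisense hits fell were Glyma.10G246300, Glyma.20G146200, Glyma.11G065800, Glyma.01G177000 and Glyma.10G037100, so for Glyma.10G037100 antisense hits fell (-1.61 ± 0.58) while its total did not pass the test. Most antisense hits of Glyma.10G246300 were in the single library of seedling stage 5. The embryo parts had almost none, so its fall was built in.

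The second comparison set the 3 Williams immature seed coats against the same 7 seedling libraries, which are thus shared with the first. Of 22 cupins tested 5 rose and 4 fell, 1 of 2 oleosins fell, and of 15 LEA genes 6 rose and 3 fell, beside 47.4% of 16669 genes called (24.5% higher and 23.0% lower). Without stage 2, 20 of the 39 tested were called, beside 55.7% of 16878 genes. DESeq2 called 29 of 61 members with an adjusted p, beside 39.5% of 28025 genes. Without TMM scaling 18 members rose and 4 fell (38.3% and 16.3% of all genes), and with library reads as library size 14 rose and 3 fell (37.1% and 5.17%), scalings that move the median of all genes from 0.02 to 0.79 and 1.61 on the log2 scale. Glyma.15G042100, a cupin with no further description, had 6.97, 7.62 and 3.91 CPM in the coats and 0 to 0.307 (median 0.202) in seedlings (log2 fold change 4.22 ± 0.58, edgeR adjusted p = 1.1e-05). This cupin passed the low-count filter only through the coats, so a difference was built in and its p is no support for it. It also had 4.67 and 6.07 CPM in the axes but 0.535 and 0.212 in the seed cotyledons. Glyma.11G153587 rose by 2.64 ± 0.56 and Glyma.02G145700 by 2.60 ± 0.64, the latter not without the first coat (1.75, edgeR adjusted p = 0.051) and by 3.21 without the third. Among LEA genes with a root cap domain, Glyma.12G220300 had 206 hits against 1, a ratio of 263 in CPM (95% counting interval 46.7 to 10450), and Glyma.12G220200 226 against 3, a ratio of 96.3 (32.5 to 470.4). Most of the coat hits were in coat 3, without which the ratios were 97.0 (15.9 to 3978) and 37.3 (11.6 to 191.1), and without stage 5 Glyma.12G220300 was at least 74.7-fold higher. Glyma.13G357632 had 357 hits against 5 and rose by 5.44 ± 0.76. With 1, 3 and 5 seedling hits, these 3 genes passed the low-count filter only through the coats, so a difference was built in. Glyma.06G310300 rose from 3.09 ± 1.73 to 19.0 ± 5.18 CPM (1.80 ± 0.65, edgeR adjusted p = 0.026). That call was lost without the second coat (edgeR adjusted p = 0.10) or without seedling stage 3 (0.059) or 4 (0.051). Glyma.13G153154 fell (-2.11 ± 0.82, edgeR adjusted p = 0.038), a call lost without any 1 of the 3 coats (edgeR adjusted p 0.069 to 0.17) or without seedling stage 3 (0.067) or 4 (0.055). The LEA genes that fell were Glyma.20G044800 (2 hits against 290), Glyma.10G130600 (1 against 240) and Glyma.11G147700, the last at -2.06, at -3.58 without coat 3, and not called without coat 1 or coat 2 (edgeR adjusted p 0.17 and 0.15). Glyma.20G044800 and Glyma.10G130600 passed the filter only through the seedlings, so their difference was built in too. The oleosin that fell, Glyma.17G086400, was not called without coat 2 or coat 3 (edgeR adjusted p 0.075 and 0.085). Nor were the cupins Glyma.13G123500 (0.097 and 0.085, and 0.056 to 0.073 without seedling stage 3, 4 or 7) and Glyma.20G146200 (0.092 and 0.099), and the LEA genes Glyma.08G239400 and Glyma.13G237700 were not called without coat 3 (0.11 and 0.22).

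Embryo parts and Williams immature seed coats differed at few members. Of 25 cupins, 3 oleosins and 27 LEA genes tested, 2 LEA genes were called, beside 6.47% of 22181 genes (3.06% higher and 3.41% lower). DESeq2 called 5 of 70 members with an adjusted p, beside 14.1% of 28506 genes. Glyma.13G357632, a group 2 LEA gene, had 4.21, 1.48 and 2.40 CPM in the coats (357 hits) and no hit in the 4 embryo parts, at least 203-fold lower against a floor of 3 hits over the group (edgeR adjusted p = 0.0035). Glyma.20G044800, also of group 2, had 48, 100, 9 and 10 hits in the dry cotyledon, immature cotyledon and axes and 2 in the coats, a ratio of 48.9 (95% counting interval 13.3 to 407, edgeR adjusted p = 0.040), and its call was lost without any 1 of the coats (edgeR adjusted p 0.090 to 0.18). Its ratio was 27.1 (7.23 to 229) without the immature cotyledon and 74.0 (13.1 to 2942) without coat 1. Both called genes passed the low-count filter only through the group where they were high. A difference was thus built in, and their p is no support for it. Glyma.13G153154 had 14.0, 8.95, 10.3 and 5.61 CPM in the embryo parts and 2.00, 1.71 and 2.98 in the coats, without overlap, but did not pass (edgeR adjusted p = 0.052).

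Against the 9 buds and shoot tips, 9 of 15 cupins rose and 1 fell in embryo parts, 4 of 14 LEA genes rose and 5 fell, and no oleosin passed the filter, beside 48.9% of 13803 genes called (26.7% higher and 22.2% lower). With library reads as library size 15 members rose and 3 fell (36.4% and 6.81% of all genes), and the median of all genes moved from -0.02 to 0.87 on the log2 scale. DESeq2 called 47 of 73 members with an adjusted p, beside 46.5% of 30179 genes. Of the cupins that rose, Glyma.10G037100, Glyma.03G163467, Glyma.20G148300 and Glyma.20G148400 were not called without the immature cotyledon (edgeR adjusted p 0.11 to 0.27), nor Glyma.15G042100 without the second axis (0.13). The cupin that fell, Glyma.11G065800, was not called without the dry cotyledon or either axis (0.063 to 0.078), nor the LEA gene Glyma.05G103100, which fell, without the immature cotyledon or either axis (0.052 to 0.061). The vegetative libraries are all Clark and the embryo parts all Williams, so cultivar and organ cannot be told apart. Glyma.19G147200 and Glyma.03G144400 had no hit in the 9 libraries and were at least 138.7-fold and 102.8-fold higher in embryo parts against a floor of 3 hits over the group, or at least 87.3-fold and 64.7-fold without the deep glabrous tip at 1 month. Genes with no vegetative hit can pass the low-count filter only through the embryo parts, so their difference was built in. Glyma.11G065800 passed it only through the buds and tips, so its fall was built in too. Glyma.17G040800 rose by 4.58 ± 0.61 and Glyma.13G119400 by 4.21 ± 0.57 in all hits (edgeR adjusted p = 2e-05 and 2.3e-05), or by 3.50 and 3.14 without the immature cotyledon, but their antisense hits alone fell by 2.38 (-2.38 ± 0.65 each, edgeR adjusted p = 0.0069). The root cap genes Glyma.11G147700, Glyma.11G147600 and Glyma.12G068800 fell (-4.76, -4.32 and -3.79), as did Glyma.12G209500 (2.36 ± 1.59 against 7.54 ± 4.99 CPM). The call of Glyma.12G209500 was lost without the immature cotyledon, either axis, or the adult five-foliate or glabrous tip (edgeR adjusted p 0.051 to 0.097). Glyma.03G069100 was at 7.92 ± 4.07 CPM in embryo parts and 15.1 ± 8.69 in buds and tips and its total did not pass, while its sense hits fell by 2.62 (-2.62 ± 0.87, edgeR adjusted p = 0.019).

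Along the 7 seedling stages 1 of 27 tested members changed, beside 3.51% of 12422 genes (2.90% higher and 0.612% lower). Glyma.20G044800 rose by 0.74 ± 0.18 on the log2 scale per stage (edgeR adjusted p = 0.0050), with 0.347, 0, 0.454, 0.0995, 1.14, 2.46 and 4.61 CPM from stage 1 to 7. It was not called without stage 1 (1.01, edgeR adjusted p = 0.086), stage 2 (0.72, 0.085) or stage 3 (0.73, 0.11). No storage globulin gene passed this test: Glyma.03G163533, for example, had 1.35 CPM in stage 1 and 0.503 in stage 7.

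Richland and T157 coats of 5 to 6 mg, which differ at the I locus, had 0 of 21 tested members called by edgeR, beside 1.12% of 10761 genes. At an unadjusted p under 0.05 there were 2, beside 8.17% of all genes, and DESeq2 called 0 of 35 with an adjusted p, beside 0.521%. The smallest p was that of Glyma.02G145700, with 9.57, 4.47 and 3.99 CPM in Richland and 8.79, 11.7 and 17.5 in T157 (-1.02 ± 0.39, edgeR adjusted p = 0.35). Buds against adult tips gave 0 of 27 tested members, beside 2.50% of 14015 genes, with 3 at an unadjusted p under 0.05 (14.2% of all genes) and 0 by DESeq2, which gave 9 members an adjusted p and called 14.5% of 5423 genes. There Glyma.03G069100 was at 24.3 ± 1.07 CPM in buds (n = 3) and 14.5 ± 2.93 in tips (n = 4), without overlap, at an edgeR adjusted p of 0.30.

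Genes of related function, listed by description, moved as follows between embryo parts and seedlings, where 44.3% of all tested genes were called, 24.1% higher and 20.3% lower. Of 53 tested genes for other seed proteins, such as lipoxygenases, Kunitz inhibitors and dehydrins, 13 rose and 21 fell. Of the tested genes for protein processing and breakdown, 40 rose and 18 fell (51.3%). Of 56 genes for maturation and abscisic acid regulators, 12 rose and 14 fell (46.4%). Of 51 tested genes listed as markers of green tissue, 6 rose and 27 fell. Their summed small RNA level did not separate the tissues. It was 166 to 531 CPM in embryo parts, 246 to 1865 in the 6 deeper seedling libraries and 452 to 2345 in buds and tips. In seed coats it was 367 to 895 CPM (Williams immature) and 978 to 1262 (seeds of 5 to 6 mg). The part of greening in the members' differences was not tested.

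Over the 35 libraries other than stage 2, the genes most like Glyma.13G153154 among 11718 with at least 1 CPM were Glyma.12G228032 (Spearman rho 0.998), Glyma.04G073700 (0.996) and Glyma.13G272000 (0.995), the same 3 genes whose counts were within 5% of it, followed by Glyma.07G259600 (0.974) and Glyma.14G092800 (0.969). For the oleosin Glyma.17G086400 the closest was Glyma.13G083300 (0.762), an oxysterol-binding protein gene. For the young seed coat gene Glyma.08G255700 it was Glyma.18G173200 (0.889), a kelch repeat gene. These are descriptions over libraries of different depth.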

How the data were processed

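The authors deposited, per the file headers, whole-number counts of small RNA hits per transcript model (86256 models, total and unique hits, sense and antisense strand) for 36 libraries, beside a smaller table in RPM (hits scaled to 1e6 library reads). The submitters' processing notes name Bowtie 1 as a tool. What makes a hit unique and which read lengths were kept is not given in the sources used here. Per the labels' protocols, total RNA was extracted with phenol and chloroform, and 2 library kits and 2 sequencer models were used without being assigned to libraries. The deposited RPM values served only as a check of the sample columns; all value columns were mapped to samples (0 unmapped).

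Genes were represented by the model with the lowest splice number (52872 genes; 44168 with hits), and the rows of all of them entered library sizes. Members were found by the description of the best TAIR10 hit. The members and the gene lists were chosen with earlier results of these data known. Levels are CPM over all gene hits of a library, and means are given with SD. Tests used edgeR 4.0.16 in R 4.3.3 (quasi-likelihood test after TMM scaling, with genes kept by filterByExpr at min.count 10 and min.total.count 15), fitted over all genes with Benjamini-Hochberg adjustment at 0.05; SE is the log2 fold change divided by the square root of F. DESeq2 1.42.0 was an alternative. The scripts were tested on simulated data. Counting intervals are exact at 95% and, like the 3-hit floors, cover counting error only, since reads carried no molecular identifiers. Counts were called near-equal where 2 genes with at least 50 hits differed by at most 5%, summed over libraries relative to their hits. Named genes are the 8 members of a class with the highest mean CPM (5 oleosins), in each comparison the 5 called members with the largest change in each direction at 5 CPM or more, and the member with the smallest p. Other members were named after their values were seen. Alternatives were other scalings, no filter, single strands, unique hits, merged identical counts and each library left out. Promoter motifs and protein sequences were not analysed here. No 2 libraries held identical counts.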

Additional observations from a re-analysis of the deposited data

Results flagged for a closer look

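In groups of 4 to 10 libraries, values were picked out where the gap between the most extreme library and its nearest neighbour took an unusually large share of the group's range; 11 of 90 values examined were so picked, and chance picks about 1 in 20. Among the embryo parts, Glyma.16G071800 was at 0.703 CPM in the immature cotyledon, with a gap of 0.889 of the range. Among seedling cotyledons, stage 1 stood apart in oleosin CPM (gap 0.687), in oleosin sense CPM (0.715) and in Glyma.16G071800 (0.738, at 1.47 CPM), and stage 3 in oleosin antisense CPM (gap 1, since it alone had any). Among buds and shoot tips, the glabrous tip at 1 month stood apart in oleosin CPM (gap 0.724), in oleosin sense CPM (0.835), in Glyma.17G086400 (0.884, at 6.07 CPM) and in Glyma.19G063400 (gap 1, on 2 hits, with none in the other libraries of the set). In the same set the adult glabrous tip stood apart in Glyma.16G071800 (gap 0.583, at 0.505 CPM) and the five-foliate tip at 1 month in Glyma.06G310300 (0.679, at 17.8 CPM).

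The dry seed coat, which entered no comparison between tissues, had 127.1 CPM on cupin genes and 155.3 CPM on LEA genes, above all 3 Williams immature coats. It is 1 library, and the difference was not tested. Leaving out the cupins whose counts nearly equal those of other genes, it had 108.8 CPM on cupins, against 42.3 ± 10.1 in the immature coats (n = 3).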

How the results depend on the processing

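Counts of tested members called changed with the alternatives as follows. With DESeq2 the counts were 39 (embryo parts against seedlings), 29 (coats against seedlings), 5 (embryo parts against coats), 47 (embryo parts against buds and tips) and 3 (stage trend) of 74, 61, 70, 73 and 32 members with an adjusted p, the last beside 10.3% of all genes. With no low-count filter they were 47, 41, 4, 46 and 0 of 101, 103, 100, 101 and 81 tested, beside 33.8%, 31.9%, 8.10%, 34.3% and 1.00% of all genes. With antisense hits alone they were 9, 11, 0, 6 and 0 of 15, 16, 20, 12 and 13 tested, beside 44.6%, 54.5%, 7.22%, 46.7% and 2.69% of all genes. With antisense hits and without stage 2, alternatives chosen after seeing the data, they were 10 of 16 for embryo parts and 9 of 16 for coats against seedlings, beside 52.7% and 59.3%. With library reads as library size the stage trend had 0 of 29, as had all genes. Sense against antisense gave 30 calls of 36 tested in embryo parts only, 2 of 6 in seedlings only and 3 of 9 in immature seed coats only, beside 79.1%, 78.7% and 77.4% of all genes. With 1 library left out the counts ran from 21 to 24, 14 to 20, 1 to 3, 14 to 20 and 0 to 2 in the order above, 0 for Richland against T157 and 0 to 1 for buds against adult tips, and the strand test without stage 2 gave 57. The share of all genes called moved in such fits too. Without stage 2 it went from 44.3% to 52.1% (embryo parts against seedlings) and from 47.4% to 55.7% (coats against seedlings). These counts therefore do not show a change particular to the members. Embryo parts against coats had 1 call without coat 2 or coat 3, either cotyledon or the first axis. The trend had 0 without stage 1, 2 or 3 and 2 without stage 5, and buds against tips had 1 without the standard bud. Scaled to library reads (RPM), the mean level was 136.1 in embryo parts and 82.4 in Williams coats for cupins, 1.79 and 1.61 for oleosins, and 105.2 and 67.9 for LEA genes. Without members near-equal to other genes, a choice made after seeing the data, the mean cupin level in embryo parts was 62.4 CPM.

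Values turned sign in few cases, and the cause was not tested. With embryo axes as the only embryo parts the log2 fold change against seedlings was -0.31 for Glyma.03G163467, -0.99 for Glyma.03G163533 and -0.82 for Glyma.19G164900. With antisense hits alone it was -2.38 against buds and tips for Glyma.13G119400 and for Glyma.17G040800. The log2 ratio of sense to antisense hits was 0.77 for Glyma.11G153587 and 6.54 for Glyma.17G040800 in embryo parts only, and -0.73 for Glyma.05G103100 and -0.060 for Glyma.11G147700 in seedlings only.

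With the replicate number as a replicate block, Richland against T157 had 0 calls of 21 tested members, as without it, beside 0.827% of all genes. Deviations of libraries with the same number correlated at -0.203, -0.101 and -0.182, so the numbers were not taken to pair libraries.

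Depth limits these results: 3 hits in stage 2 equal 3.11 CPM, above the mean level of most members. Each embryo part and seedling stage differs from the others of its group. So does each vegetative library, except that the 2 adult tips of the standard isoline share a label. The 2 kits and sequencers cannot be matched to libraries.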
